A study of Mus musculus with 3 samples.

Results

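Interleukins and their receptors were followed across the cell types of the mouse lung at P14, the postnatal day on which alveoli are still being added. Members were taken by name alone, as every gene symbol that begins with Il and a number, which gave 85 of the 28692 features counted and 83 distinct symbols. Interleukins are small secreted proteins that carry signals between cells, and each acts only on cells that carry its receptor. Most receptors are pairs or trios of subunits, one that binds the ligand and one that is shared with other cytokines. Receptors of the IL-1 family (IL-1, IL-18, IL-33 and IL-36) signal through MYD88 and IRAK kinases, and most of the others signal through JAK kinases and STAT factors. In lung, IL-33 from epithelium acting on group 2 innate lymphoid cells (ILC2), which release IL-5 and IL-13, and IL-1β from myeloid cells are much studied examples.

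The data were droplet single-cell RNA-Seq (scRNA-Seq) of whole lung from 3 wild-type C57BL/6 mice, numbered 2, 3 and 4, that had been kept in room air (RA) from day of life 1 to 14. Each library was loaded with 16000 cells and made with the 10x 3' v3 chemistry, which counts unique molecular identifiers (UMIs), 1 for each captured RNA molecule. All 3 mice shared the genotype, age and exposure, so the comparisons are between cell types. Each p rests on the spread between mice within a type or class, pooled over all types or classes. The main fit had no term for mouse, so it treated values of the same mouse as independent. The libraries held 3034, 3135 and 3475 barcodes with 22476491 to 25192427 UMIs, against 5677 cells in the submitters' design text, whose filter was not given in the sources used here.

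Barcodes below 200 genes or above 20% mitochondrial UMIs were dropped. The 7642 kept cells had 6033.5 UMIs at the median. The libraries shared 2 to 5 barcodes pair by pair. The kept cells formed 31 clusters, which were named from marker genes that hold no interleukin into 22 types, leaving 4 clusters unnamed. Names carry "-like" because they rest on markers alone. No defining marker of any type was at 0 in that type. Some were higher in another type than in their own, namely *Clec9a*, *Ccr7* and *Zbtb46* (dendritic), *Areg* (ILC2), *Cxcr2* (neutrophil), *Hdc* (basophil or mast), *Pi16* and *Dpt* (Col14a1-type), *Pf4* (interstitial macrophage), *Car4* (alveolar macrophage), *Plvap* (Aplnr-type), *Sox17* (arterial), *Tbx2* (Car4-type) and *Actg2* (myofibroblast). Cartilage genes led the Col14a1-type fibroblasts beside their markers, and lymphatic genes (*Mmrn1*, *Ccl21a*) were among those leading the venous EC-like cells. The 603 Aplnr-type capillary EC included a dividing cluster of 111 cells that was not endothelial throughout, with a *Pecam1* UMI in 45% of its cells, *Ptprc*, the pan-leukocyte gene, in 23.4% and *Cd79a*, a B cell gene, in 18.9%, against 100%, 2.44% and 2.85% in the other 492. Raw UMIs were summed per mouse and type and expressed as CPM, counts scaled to a common library total. In such sums fewer transcripts per cell and fewer transcribing cells cannot be told apart, and UMIs from free RNA are included.

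The family was sparse in these lungs. Its members held 81973 of the 66547233 UMIs in the kept cells, which was 0.104%, 0.152% and 0.116% in mice 2, 3 and 4, and *Il1b* alone held 21.9% of the family's UMIs. In the kept cells 70 features had at least 1 UMI, 43 of them had 100 or more, 15 had 10 to 99 and 12 had 1 to 9. The remaining 15 had none. Those were the ligands *Il3*, *Il9*, *Il17a*, *Il17c*, *Il20*, *Il21*, *Il22*, *Il25*, *Il31*, *Il1f6* and *Il1f10*, the IL-36 receptor antagonist *Il1f5* and all 3 identifiers of the receptor gene *Il11ra2*. A count of 0 only limits the share of cells with a UMI, and expression below that was not detectable at this depth.

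Each named member was fitted in sums per mouse with edgeR's quasi-likelihood test across all genes, with Benjamini-Hochberg adjustment over all genes tested and a threshold of 0.05. Among 4 classes (EC, epithelial, stromal and immune), each set against the mean of the other 3, 52 members could be tested. The immune class had 37 of them higher, where 37% of all 14257 genes tested were higher, and 10 lower, where 38.2% were. Their median log2 fold change was 4.97 against -0.06 over all genes tested. Some passed the filter on low counts through the immune sums, such as *Il1f9* with 264 UMIs there, 3 in stromal, 1 in EC and 0 in epithelial sums. Such members add no support to the count or the median, and zeros in the other classes enter the logs behind that median. The 10 that were lower were *Il17d*, *Il17rc*, *Il34*, *Il33*, *Il17rd*, *Il1r1*, *Il7*, *Il11ra1*, *Il6st* and *Il13ra1*, 4 ligands and 6 receptor subunits. The epithelial class had 9 members higher and 27 lower (background 34.1% and 36.9%), and the stromal class had 10 higher and 25 lower (background 36.3% and 31.9%). EC had 14 higher and 14 lower, where 30.7% and 27.7% of all genes were. With the mixed dividing cluster left out, an alternative chosen after seeing the data, EC had 15 higher and 19 lower. In that alternative 29.63% of all genes were higher and 29.95% were lower.

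Outside the immune class both receptor subunits and ligands were higher, and receptor subunits were also most of the members tested. The ligands called higher in EC were *Il1a*, *Il15* and *Il17d*. *Il1a* was sparse, with 61 of its 90 UMIs in neutrophil-like cells. Its log2 fold change was 1.90 ± 0.71 (SE) in EC against 5.72 ± 0.49 in the immune class. In EC, *Il17rd*, a receptor-like protein also known as a brake on FGF signalling, had a log2 fold change of 4.62 ± 0.18 (SE), *Il2rg*, the common γ chain, 3.10 ± 0.17, and *Il4ra* 1.71 ± 0.06. The common γ chain stood at 57.5, 75 and 78.8 CPM in EC of the 3 mice and at 127, 147 and 147 CPM in immune cells, with no epithelial or stromal sum above 3.47 CPM. In epithelial cells *Il33* had 6.84 ± 0.14, *Il17re* 6.41 ± 0.20, *Il34* 5.10 ± 0.23 and *Il18r1* 4.97 ± 0.16. In stromal cells the largest were *Il17d* with 3.87 ± 0.15 and *Il11ra1* with 3.06 ± 0.09.

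Across the 22 types, each against the mean of the others, 48 members could be tested. Of these, 47 were called higher in the type where their mean CPM was highest, their leading type. So were 90.5% of all 12453 genes tested in theirs. The leading type was picked from the same sums, so such a call was nearly fixed in advance and is no support. DESeq2 called 38, without 9 low members described below. A stricter description asks that the lowest mouse of the leading type lie above the highest mouse of every other type. By that measure 31 of 48 stood apart, against 34.1% of all genes tested. Those 9 low members and *Il12a* passed the filter on low counts through their leading type, an immune type for each, and all stood apart. They add no support to this count or to the counts of leading types that follow. Leading types were immune for 35 of the 48 (72.9%), where 43.4% of all genes tested were led by an immune type. EC types led 4 (8.33% against 15.1% of all genes), stromal types 5 (10.4% against 21.1%) and epithelial types 2 (4.17% against 13%). Of the 15 ligands tested, 12 were led by an immune type, 2 by a stromal type, 1 by an epithelial type and 0 by an EC type. Of the 30 receptor subunits, 20 were led by immune, 4 by EC, 3 by stromal and 1 by epithelial types and 2 by the sparse platelet-like sums. Whether ligands and subunits differed in this was not tested. Neutrophil-like cells led 9 members (18.8%, against 4.97% of all genes), ILC2-like cells 8 (16.7% against 5.14%) and basophil or mast-like cells 5 (10.4% against 6.98%). The heat map of members by type sorts its rows by leading type, so its blocks follow from that order.

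As a type against the mean of the others, T cell-like and dendritic-like cells each had 21 of the 48 higher (27.9% of all genes tested in each). Neutrophil-like cells had 19 (23.2%), ILC2-like cells 18 (16.1%), basophil or mast-like and interstitial macrophage-like cells 14 each (10.3% and 15.1%), and alveolar macrophage-like and NK-like cells 13 each (17.5% and 19.0%). B cell-like cells had 15 (38.6%). Among EC, Aplnr-type capillary cells had 16 (40.5%), arterial and venous EC-like cells 12 each (27.1% and 26.1%) and Car4-type capillary EC 11 (26.9%). AT2-like cells had 11 (39.9%), AT1-like and secretory-like cells 10 each (29.8% and 31.6%). In the stroma Col13a1-type fibroblasts had 11 (30.2%), Col14a1-type fibroblasts, myofibroblast-like and pericyte-like cells 10 each (29.8%, 41.8% and 21.6%) and smooth muscle-like cells 9 (36.1%). Platelet-like sums had 4 (7.09%). Members that passed the filter on low counts through a type add no support to the count of that type.

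For 9 low members the call differed between tools. *Il1f9*, *Il23a*, *Il13*, *Il5*, *Il17rb*, *Il4*, *Il6*, *Il12rb2* and the B cell-led *Il5ra* were each at 0 UMIs in 14 to 17 types and passed the filter on low counts through the type where they were high. DESeq2 called none of these 9 in its leading type, with adjusted p from 0.142 (*Il12rb2*) to 0.595 (*Il4*). They are therefore described by their levels in each mouse, with no p.

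**Figure D1:**
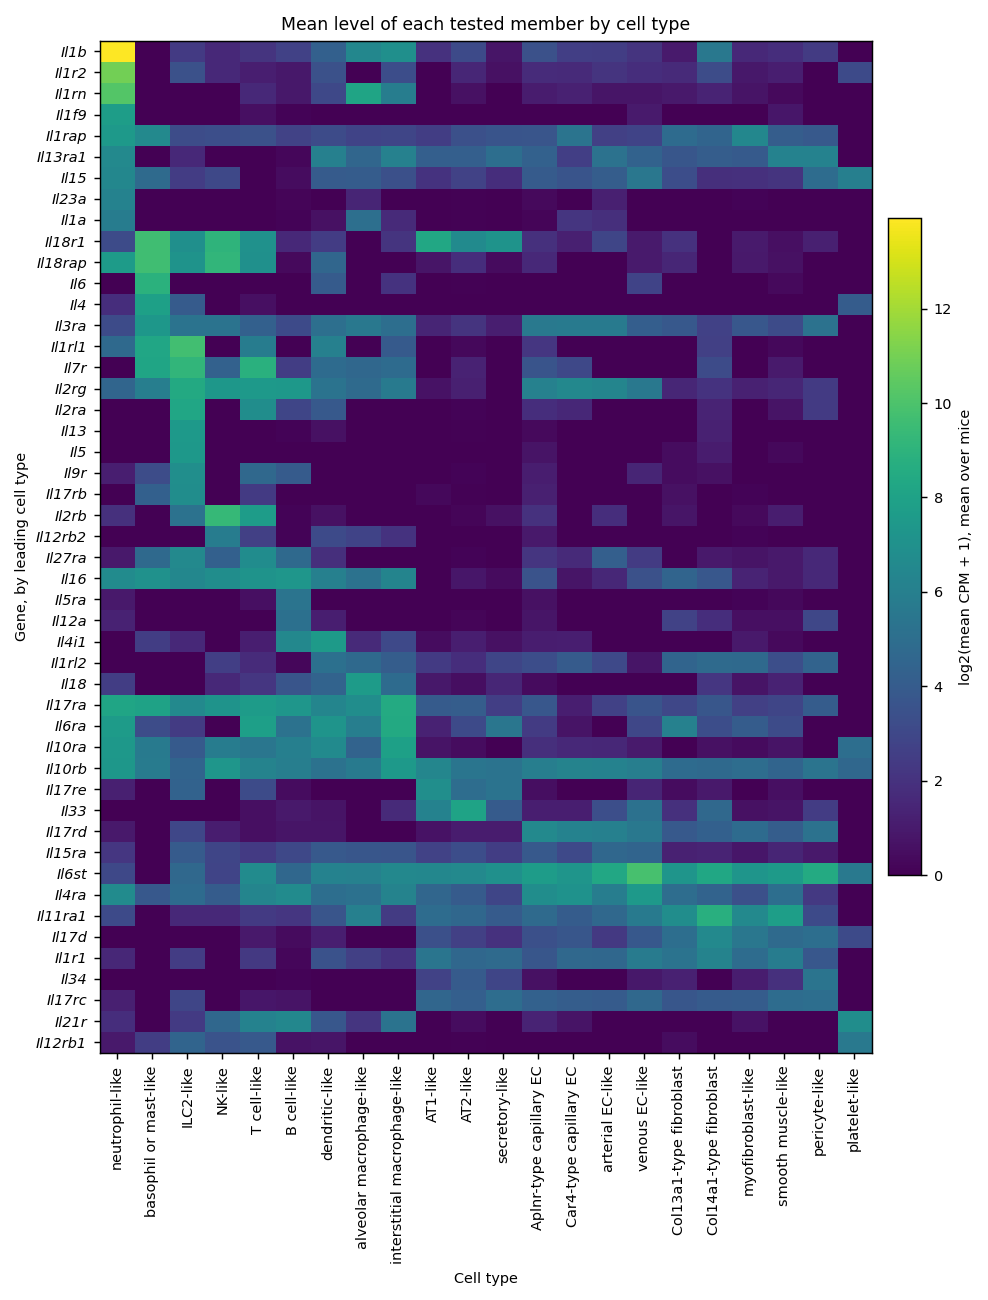
Mean CPM over mice, as log2(mean CPM + 1), of the 48 tested members (rows) in the 22 named types (columns). Rows are sorted by leading type in the order of the columns, so blocks follow from the sorting. Colours are to be read along a row, since levels of different genes are not compared, and the neutrophil, ILC2 and basophil or mast columns hold 9, 8 and 5 of the row maxima.

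Neutrophil-like cells, the short-lived granulocytes that are among the earliest cells at sites of infection, carried the IL-1 ligands together with their inhibitors. *Il1b*, the secreted IL-1 that must be cut by caspase-1, stood at 15521, 14939 and 15920 CPM in mice 2, 3 and 4 (15460 ± 493, SD, n = 3). The next type, the interstitial macrophage-like cells, had 19.7, 205 and 137 CPM, so the groups did not overlap. Against the mean of all other types the edgeR adjusted p was 8.25e-42. Every p given with a type, here and below, is for that contrast, and none was computed against the next type alone. The type was picked as the highest in these same sums, so such a p is no support for its lead. *Il1b* had a UMI in 440 of 467 neutrophil-like cells (94.2%, exact 95% interval 91.7 to 96.2) at a median of 2133 UMIs per cell. AT2-like cells, which should lack it, had one in 2.52% at a median of 16250 UMIs, and with each cell thinned to 1000 UMIs the shares were 93.1% and 0.326%. Intervals on shares cover counting error only.

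The 2 proteins that restrain IL-1 were led by the same cells. *Il1r2*, a decoy receptor that binds IL-1 without signalling, stood at 2556, 1670 and 1728 CPM in neutrophil-like cells and at no more than 29.8 CPM in any other sum (edgeR adjusted p = 3.86e-44). *Il1rn*, the secreted receptor antagonist, stood at 1167, 1249 and 1052 CPM, apart from alveolar macrophage-like cells at 204, 353 and 275 CPM (edgeR adjusted p = 1.09e-37). They were also found in single cells. Of the 467 neutrophil-like cells, 381 had a UMI of both *Il1b* and *Il1r2*, 305 of *Il1b* and *Il1rn*, and 266 of all of them, 67, 120 and 79 in mice 2, 3 and 4.

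Other ligands of these cells were fainter. *Il1f9*, which encodes IL-36γ, stood at 137, 294 and 200 CPM and was at 0 UMIs in 17 of the 22 types. It had a UMI in 153 of the 467 neutrophil-like cells, 139 of them with *Il1b* also. *Il1a*, the other IL-1, stood at 68.6, 50.5 and 47.8 CPM with alveolar macrophage-like cells next at 39.2, 15.4 and 45.9 CPM, a narrow gap. *Il23a*, the subunit particular to IL-23, stood at 80.8, 103 and 25.3 CPM in 29 cells, all 29 with *Il1b*. *Il15*, a growth factor of NK cells, was led by neutrophil-like cells at 101, 93.6 and 61.9 CPM, but a platelet-like sum at 126 CPM overlapped it, and venous EC-like cells followed at 48.3, 48.6 and 35.4 CPM.

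On the receptor side the neutrophil-like cells led *Il1rap*, the accessory chain shared by the receptors for IL-1, IL-33 and IL-36, at 178, 210 and 141 CPM. Basophil or mast-like cells at 67.5 and 116 CPM and myofibroblast-like cells at 70.1, 96.5 and 89.9 CPM came next, all below. *Il13ra1*, a chain of the IL-4 and IL-13 receptor, stood at 88.8, 116 and 76 CPM and overlapped pericyte-like cells, whose mean was 71.7 CPM. *Il1bos*, an antisense RNA that overlaps *Il1b* on the opposite strand, had 26 UMIs in all. Whether the counting used strand is not given in the sources used here, so reads of that pair cannot be told apart.

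**Figure D2:**
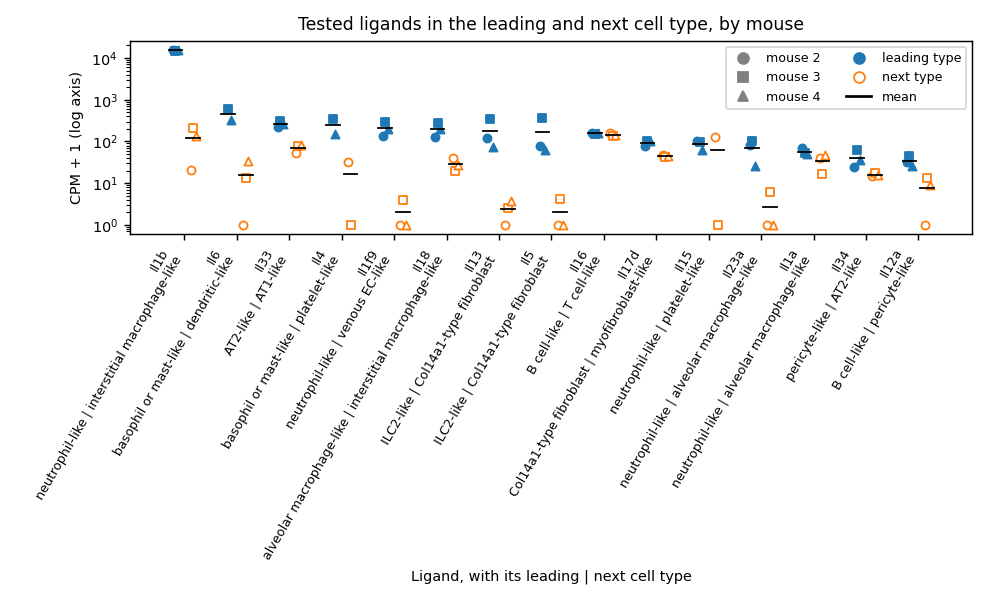
CPM + 1 on a log axis of the 15 tested ligands in each mouse, in the leading type and in the type with the next highest mean. Points are mice, so the gap between colours shows whether the groups overlap, widest for *Il1b* (15460 against 121 CPM on average) and absent for *Il16*.

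The bases just before the transcription start were compared for the neutrophil-like cells' ligands that stood apart and had a single RefSeq start. *Il1a* and *Il1b* lie side by side on chromosome 2 (GENCODE M21 on GRCm38, 129299610 to 129309972 and 129364570 to 129371139, both on the minus strand). The 250 bases were searched on both strands for 4 motifs. The core bound by PU.1, a myeloid factor, is GAGGAA and is held by 23.3% of 32851 such windows. The core bound by GATA factors is AGATAA, held by 9.99%. The C/EBP site was searched as TTGCNNAA, held by 9.56%, and the NF-κB consensus was held by 4.11%. The windows below are RefSeq GRCm38 at chr2:24186226-24186475 (plus strand), chr2:129309973-129310222 (minus) and chr2:129371140-129371389 (minus), 5′ to 3′ with matches in capitals. *Il1f9* held the PU.1 and GATA cores, *Il1a* held the PU.1 core, and *Il1b* held none of the 4.
Il1f9: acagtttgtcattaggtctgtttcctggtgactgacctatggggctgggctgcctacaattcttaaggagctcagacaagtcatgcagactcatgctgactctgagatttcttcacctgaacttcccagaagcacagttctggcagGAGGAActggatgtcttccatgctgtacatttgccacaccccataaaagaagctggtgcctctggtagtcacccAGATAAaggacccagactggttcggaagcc
Il1a: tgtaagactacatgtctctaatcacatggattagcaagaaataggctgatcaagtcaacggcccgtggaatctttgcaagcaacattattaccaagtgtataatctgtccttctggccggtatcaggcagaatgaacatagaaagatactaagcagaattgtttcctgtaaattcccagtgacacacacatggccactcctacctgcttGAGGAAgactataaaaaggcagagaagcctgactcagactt
Il1b: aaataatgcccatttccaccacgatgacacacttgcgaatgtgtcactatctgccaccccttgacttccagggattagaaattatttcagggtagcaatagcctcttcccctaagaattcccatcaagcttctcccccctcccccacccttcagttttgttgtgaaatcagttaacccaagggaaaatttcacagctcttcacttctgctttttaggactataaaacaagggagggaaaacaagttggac

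ILC2-like cells, innate lymphocytes that answer epithelial alarm signals without antigen, led the type 2 cytokines and the receptors for the alarm signals. The ILC2 marker *Areg* was close to absent in these cells, from 0 to 11.9 CPM by mouse (mean 3.97). There were 65 of these cells, 20, 23 and 22 by mouse. T cell genes were also read in them, *Trbc2* at 455 CPM on average (1313 in T cell-like cells) and *Cd3g* at 347 (736), while *Cd3e* stood at 36.7 (303), and the part of T cells in their values was not tested. *Il1rl1*, which encodes the IL-33 receptor ST2, stood at 757, 960 and 784 CPM, above basophil or mast-like cells at 222 and 380 CPM (edgeR adjusted p = 4.77e-22). It had a UMI in 60 of the 65 cells (92.3%, exact interval 83 to 97.5, median 6612 UMIs) and in 0.28% of AT2-like cells, with 54% left after thinning. *Il17rb*, the receptor for IL-25, stood at 112, 65.6 and 154 CPM with basophil or mast-like cells next at 19.3 and 16.5 CPM, and 24 of its 25 ILC2-like cells also had *Il1rl1*. *Il9r*, the IL-9 receptor, stood at 145, 77.5 and 134 CPM, above T cell-like cells at 22.5, 21.2 and 32.7 CPM.

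The cytokines made by these cells rested on few cells. *Il13* stood at 118, 346 and 73.7 CPM, with 87 of its 94 UMIs in ILC2-like cells. *Il5*, the growth factor of eosinophils, stood at 79, 364 and 60.3 CPM, with 82 of its 91 UMIs there. For both, mouse 3 was the highest by more than the distance between the other 2, and every mouse was above every other type. The 10 cells with the most UMIs held 87.4% of the *Il13* and 84.1% of the *Il5* UMIs of the type. A single cell of mouse 3 held 48 of the 61 *Il5* UMIs of that mouse, where mice 2 and 4 had 12 and 9. For *Il13* the highest cell, also of mouse 3, held 21 of 58 UMIs. The height of mouse 3 is therefore not read as a difference between mice. *Il13* was seen in 19 cells and *Il5* in 23, both in 10, and *Il1rl1* was seen in 17 of those with *Il13* and in 22 of those with *Il5*.

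The γ chain receptors joined the ILC2-like cells with the T cell-like and NK-like cells. *Il7r*, needed for lymphocyte survival, stood at 507, 602 and 623 CPM in ILC2-like and at 501, 422 and 443 CPM in T cell-like cells, so the lowest ILC2-like mouse lay only just above the highest T cell-like one. *Il2rg* stood at 263, 441 and 328 CPM, with T cell-like cells at 169, 170 and 203 CPM. *Il2ra*, the high-affinity IL-2 chain, stood at 276, 465 and 167 CPM and overlapped T cell-like cells at 28.2, 173 and 135 CPM. *Il2rb*, the chain that IL-2 and IL-15 share, was led by NK-like cells instead, at 618, 558 and 760 CPM against 155, 230 and 243 CPM in T cell-like cells (edgeR adjusted p = 3.14e-26). NK-like cells also led *Il12rb2*, an IL-12 receptor chain, at 49, 65.8 and 54.9 CPM. *Il27ra* was led by T cell-like cells at 141, 99.9 and 84 CPM and overlapped ILC2-like cells at 105, 89.4 and 80.4 CPM.

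*Il13* and *Il5* lie within the type 2 cytokine cluster of chromosome 11 with *Il4* (*Il4* 53602982 to 53618669 and *Il13* 53631324 to 53634702 on the minus strand, *Il5* 53720794 to 53725106 on the plus strand), though *Il4* was led by other cells. Windows are shown for the ILC2-led members that stood apart with a single start and no annotated exon in the window. They are chr11:53634703-53634952 (*Il13*, minus), chr11:53720544-53720793 (*Il5*, plus), chr11:32200280-32200529 (*Il9r*, minus) and chrX:101268256-101268505 (*Il2rg*, minus), searched for the same 4 motifs. *Il17rb* and *Il7r* had an exon in theirs and are not printed, and of these *Il7r* held the C/EBP motif. *Il13* held the GATA core, *Il9r* held it once on each strand (TTATCT is its reverse complement), *Il5* held the PU.1 core on the reverse strand, and *Il2rg* held none.
Il13: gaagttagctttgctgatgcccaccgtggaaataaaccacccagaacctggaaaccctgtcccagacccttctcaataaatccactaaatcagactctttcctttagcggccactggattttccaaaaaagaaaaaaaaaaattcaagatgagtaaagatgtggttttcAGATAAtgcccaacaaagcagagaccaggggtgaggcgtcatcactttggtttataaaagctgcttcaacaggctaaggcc
Il5: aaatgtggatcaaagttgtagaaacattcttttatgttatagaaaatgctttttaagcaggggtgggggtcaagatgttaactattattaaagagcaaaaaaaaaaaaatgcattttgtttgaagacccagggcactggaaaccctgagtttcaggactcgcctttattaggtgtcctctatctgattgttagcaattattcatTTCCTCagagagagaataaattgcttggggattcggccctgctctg
Il9r: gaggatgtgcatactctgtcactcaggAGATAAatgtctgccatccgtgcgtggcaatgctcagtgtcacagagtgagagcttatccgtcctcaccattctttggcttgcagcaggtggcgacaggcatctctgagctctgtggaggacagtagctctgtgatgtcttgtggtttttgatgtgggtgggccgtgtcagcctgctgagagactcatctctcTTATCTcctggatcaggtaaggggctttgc
Il2rg: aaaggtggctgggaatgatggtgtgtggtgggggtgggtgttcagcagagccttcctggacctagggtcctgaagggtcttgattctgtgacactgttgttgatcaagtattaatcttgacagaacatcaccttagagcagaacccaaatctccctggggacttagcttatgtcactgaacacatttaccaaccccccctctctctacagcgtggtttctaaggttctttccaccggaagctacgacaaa

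Basophil or mast-like cells, granulocytes armed by IgE, were counted in mice 3 and 4 with 25 and 13 cells, since mouse 2 had 6. *Il4*, the cytokine that drives IgE switching, stood at 337 and 149 CPM, above the sparse platelet-like sums, of which the higher was 31.5 CPM, and ILC2-like cells at 6.58, 17.9 and 20.1 CPM. *Il6*, an inducer of the acute-phase response, stood at 597 and 331 CPM with dendritic-like cells next at 0, 12.4 and 33.1 CPM. Over all 44 cells, mouse 2 included, 13 had a UMI of both. The 10 cells with the most UMIs held 83.9% of their 87 *Il6* UMIs, 29 of them in 1 cell, and 68.6% of their 51 *Il4* UMIs. *Il3ra*, the IL-3 binding chain, stood at 183 and 149 CPM, above the EC types. They also led both chains of the IL-18 receptor, *Il18r1* and *Il18rap*, each overlapping NK-like cells.

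The window of *Il6* (chr5:30012864-30013113, plus strand) met the same rule for being shown, a member that stood apart with a single start and no annotated exon in the window. It held the C/EBP motif on the reverse strand (so that the capitals read TTGTGCAA) and, nearer the start, the NF-κB consensus. *Il3ra* also stood apart with a single start and held the C/EBP motif, but exons lay in its window, so it is not printed.
Il6: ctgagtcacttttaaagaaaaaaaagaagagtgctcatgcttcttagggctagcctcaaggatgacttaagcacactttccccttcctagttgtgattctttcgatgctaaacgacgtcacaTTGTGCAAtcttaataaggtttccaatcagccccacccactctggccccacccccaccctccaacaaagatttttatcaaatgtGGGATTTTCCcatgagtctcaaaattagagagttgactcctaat

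Epithelial cells led 2 members. *Il33*, the nuclear alarm cytokine bound by ST2, stood at 226, 304 and 264 CPM in AT2-like cells, which held 4639 of its 5015 UMIs (edgeR adjusted p = 6.39e-31). AT1-like cells followed at 51.6, 76 and 81.9 CPM, then venous EC-like cells at 48.3, 33.4 and 25.3 CPM. *Il33* had a UMI in 84.9% of AT2-like cells at a median of 16250 UMIs and in 0.336% of B cell-like cells at 3960.5, and the thinned shares were 20.8% and 0.105%. The AT1-like level came from 1 of its 2 clusters. The cluster of 129 cells held 2 *Il33* UMIs (1.63 CPM), and the cluster of 37 cells, whose median cell had 35994 UMIs, held 192 (126 CPM). In that small cluster *Sftpc*, the AT2 surfactant gene, stood at 98061 CPM against 2263 CPM in the other, and *Il33* per 1000 *Sftpc* UMIs was 1.28 there and 1.48 in AT2-like cells. The venous EC-like cells had 177 per 1000. The part of AT2 RNA in the AT1-like value was not tested.

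*Il17re*, the receptor chain for IL-17C, stood at 119, 116 and 108 CPM in AT1-like cells (115 ± 5.54, SD, n = 3), with secretory-like cells next at a mean of 37.8 and AT2-like cells at 30.1 CPM (edgeR adjusted p = 2.02e-24). Its ligand *Il17c* had no UMI. *Il7*, the ligand of *Il7r*, was too low for the test by type, with 74 of its 96 UMIs in AT2-like cells at 4.63, 3.51 and 4.09 CPM. Car4-type capillary EC overlapped them at 8.67, 0 and 1.9 CPM.

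EC types led receptor subunits and no tested ligand. *Il6st*, the gp130 chain shared by IL-6, IL-11 and related cytokines, stood at 922, 1114 and 749 CPM in venous EC-like cells and was next in pericyte-like cells at 339, 443 and 316 CPM (edgeR adjusted p = 7.28e-33). It was seen in 94.4% of venous EC-like cells (median 8781 UMIs) and 7.06% of B cell-like cells, 56.4% and 1.62% after thinning. *Il4ra*, the IL-4 binding chain, stood at 195, 197 and 144 CPM there, its lowest mouse just above the highest of Car4-type capillary EC at 143, 128 and 129 CPM. *Il17rd* was led by Aplnr-type capillary EC at 96.2, 76.4 and 108 CPM and overlapped Car4-type capillary EC, with a mean of 71 CPM. *Il15ra* stood at 25.2, 30.9 and 16.7 CPM in arterial EC and overlapped venous EC-like cells at 24.2, 18.2 and 22.8 CPM.

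In the stroma, *Il11ra1*, the IL-11 receptor, stood at 441, 407 and 449 CPM in Col14a1-type fibroblasts, above smooth muscle-like cells at 225, 233 and 199 CPM (edgeR adjusted p = 2.47e-32). It overlaps *Galt* on the same strand, so part of its reads could belong to that gene. *Il17d*, a distant member of the IL-17 family, stood at 74.9, 101 and 101 CPM in the same fibroblasts and at 46.6, 41 and 44.4 CPM in myofibroblast-like cells (edgeR adjusted p = 1.34e-21). *Il34*, a ligand of the CSF1 receptor, stood at 23, 61.5 and 35.6 CPM in pericyte-like cells, each mouse above AT2-like cells at 14.2, 16.5 and 14.6 CPM. *Il17b* was not tested by type, and 21 of its 24 UMIs lay in smooth muscle-like cells at 2.68, 7.23 and 5.63 CPM. *Il17rc* was led by pericyte-like cells at 28.7, 43.1 and 23.7 CPM and overlapped secretory-like cells at 31.4, 27.4 and 34.1 CPM. *Il11*, the ligand of *Il11ra1*, had 41 UMIs in all and no sum above 6.51 CPM.

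Macrophage-like and dendritic-like cells led 7 of the tested members. *Il18*, which needs caspase-1 as *Il1b* does, stood at 126, 276 and 203 CPM in alveolar macrophage-like cells, with interstitial macrophage-like cells next at a mean of 28 CPM (edgeR adjusted p = 1.36e-20). Interstitial macrophage-like cells led *Il10ra* at 237, 215 and 260 CPM, just above neutrophil-like cells at 162, 200 and 144 CPM. They also led *Il17ra* at 434, 345 and 293 CPM, *Il6ra* at 424, 392 and 241 CPM and *Il10rb* at 207, 159 and 169 CPM, all overlapping the next type. *Il10rb*, a chain of the IL-10 and IL-22 receptors, overlaps *Gm21970*. A UMI was seen in 46.2% of AT2-like cells (median 16250 UMIs) against 29.8% of interstitial macrophage-like cells (median 1931.5). These depths differ, so the shares are not compared and no expression is read from them. By level *Il10rb* was broad, above 0 in every type and called higher in the immune, epithelial and EC classes.

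*Il4i1*, an amino acid oxidase and not a cytokine, stood at 104, 129 and 346 CPM in dendritic-like cells and at 83.5, 92.1 and 96.5 CPM in B cell-like cells. Its dendritic-like UMIs lay in 19 of 183 cells, and the 10 highest held 95.2% of the 292. It overlaps *Nup62* on the same strand. *Il12b*, the p40 chain of IL-12 and IL-23, had 13 UMIs in 3 dendritic-like cells, each also with a UMI of *Ccr7*, which marks dendritic cells that migrate to lymph nodes. *Il1rl2*, the IL-36 receptor, stood at 46.2, 35.6 and 19.9 CPM in dendritic-like cells and overlapped Col14a1-type fibroblasts, with a mean of 27 CPM.

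B cell-like cells, 1784 in number, led 3 members. *Il5ra*, the IL-5 receptor, stood at 49.2, 30 and 39.2 CPM and was at 0 UMIs in 16 types. *Il12a*, the p35 chain of IL-12, stood at 31.5, 44.1 and 25.4 CPM, above pericyte-like cells at 0, 12.3 and 7.91 CPM. It was at 0 UMIs in 12 types and passed the filter on low counts through the B cell-like sums, so no p is given. *Il16*, a chemoattractant of CD4 cells, stood at 161, 154 and 160 CPM and overlapped T cell-like cells at 155, 135 and 140 CPM.

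The platelet-like sums rested on 10 and 12 cells in mice 2 and 3. They led *Il21r* at 221 and 0 CPM, where all 14 UMIs lay in 1 cell, and B cell-like cells followed at 75.7, 104 and 82.6 CPM. They also led *Il12rb1* through 1 UMI, the 1 member not called in its leading type (edgeR adjusted p = 0.0587), with ILC2-like cells next at 13.2, 29.8 and 20.1 CPM.

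Next to each other on chromosome 1 lie 6 receptor genes of the IL-1 family, all on the plus strand between 40074079 and 40551705 (GENCODE M21 on GRCm38), in the order *Il1r2*, *Il1r1*, *Il1rl2*, *Il1rl1*, *Il18r1* and *Il18rap*. Their leading types differed, though that of *Il1rl2* was weak, overlapping other types and reversing under a stricter cell filter. *Il1r2* was led by neutrophil-like cells, *Il1r1*, the signalling IL-1 receptor, by Col14a1-type fibroblasts, *Il1rl2* by dendritic-like cells, *Il1rl1* by ILC2-like cells, and the 2 chains of the IL-18 receptor by basophil or mast-like cells. *Il1r1* stood at 91.5, 69.2 and 64.5 CPM and overlapped venous EC-like cells at 50.5, 72.9 and 40.5 CPM, with AT1-like cells at a mean of 41.1 CPM. It was the only one of the 6 that was lower in the immune class.

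The 2 IL-18 receptor chains, direct neighbours, parted in the epithelium. *Il18r1*, the ligand-binding chain, stood at 887 and 695 CPM in basophil or mast-like cells, at 447, 412 and 723 CPM in NK-like cells and at 371, 260 and 337 CPM in AT1-like cells. *Il18rap*, the accessory chain, stood at 935 and 645 CPM, at 477, 710 and 522 CPM in NK-like cells and at 157, 183 and 250 CPM in neutrophil-like cells. Among AT1-like cells 111 of 166 had a UMI of *Il18r1* and 2 had one of *Il18rap*, and 2 had both. AT2-like cells gave 775 and 36 of 1071, with *Il18r1* in 72.4% of them and in 9.92% after thinning, against 0.151% of B cell-like cells thinned. Both AT1-like clusters carried *Il18r1*, 419 CPM in the cluster of 129 cells and 267 CPM in that of 37. Neutrophil-like cells were the reverse, with *Il18r1* in 8 cells and *Il18rap* in 163 of 467. The bar plot of the cluster by type shows the missing bars on either side.

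**Figure D3:**
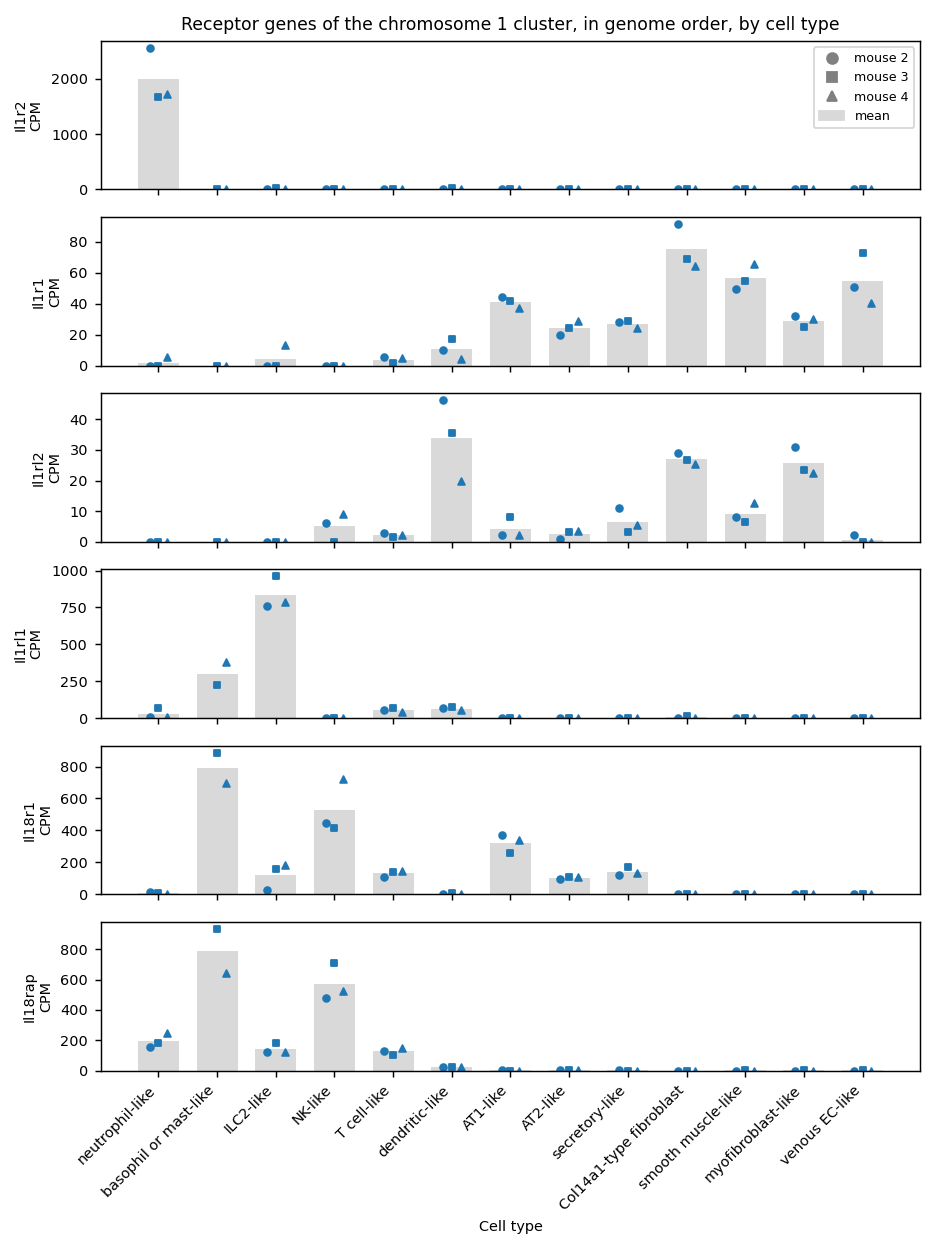
CPM of the 6 chromosome 1 receptor genes, in genome order, in 13 types. Bars are means over mice and start at 0, and points are mice. *Il18r1* has tall bars in AT1 where *Il18rap* has almost none, and the neutrophil bar is tall for *Il1r2* and *Il18rap* but not for *Il18r1*.

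Receptors work as complexes, so cells were counted that held at least 1 UMI of every subunit. Such counts miss cells through depth, and are lower limits of the transcripts present except where UMIs came from free RNA. The complete IL-18 pair was seen in 72 of 83 NK-like cells (86.7%, 21, 36 and 15 by mouse), in 37 of 44 basophil or mast-like cells (84.1%) and in 40 of 219 T cell-like cells. The IL-7 pair, *Il7r* with *Il2rg*, was seen in 48 of 65 ILC2-like cells (12, 18 and 18 by mouse) and in 99 of 219 T cell-like cells (27, 41 and 31). *Il9r* with *Il2rg* was seen in 27 of 65 ILC2-like cells.

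The IL-33 pair was rarer. *Il1rl1* was in 60 ILC2-like cells, but its accessory chain *Il1rap* was in 4 of the 65, and the same 4 cells held both. Basophil or mast-like cells gave 11 of 44 and dendritic-like cells 5 of 183. *Il3ra* with *Csf2rb*, the chain that IL-3, IL-5 and GM-CSF share, was seen in 23 of 44 basophil or mast-like cells. *Il5ra* with *Csf2rb* was seen in 35 of 1784 B cell-like cells, where 231 had *Il5ra* and 197 had *Csf2rb*.

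Pairs of the stroma and vessels were built on *Il6st* and *Il4ra*. *Il11ra1* with *Il6st* was seen in 84 of 100 Col14a1-type fibroblasts, 202 of 291 smooth muscle-like cells, 328 of 803 myofibroblast-like cells and 97 of 210 Col13a1-type fibroblasts. *Il6ra* with *Il6st* was seen in 34 of 48 secretory-like cells and 72 of 210 Col13a1-type fibroblasts. *Il4ra* with *Il2rg*, the IL-4 receptor of blood cells, was seen in 169 of 603 Aplnr-type capillary EC (152 of the 492 outside the mixed dividing cluster and 17 of its 111) and 46 of 168 Car4-type capillary EC beside 58 of 219 T cell-like cells. *Il4ra* with *Il13ra1*, which also binds IL-13, was seen in 68 of 291 smooth muscle-like cells. *Il1r1* with *Il1rap* was seen in 124 of 803 myofibroblast-like cells.

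**Figure D4:**
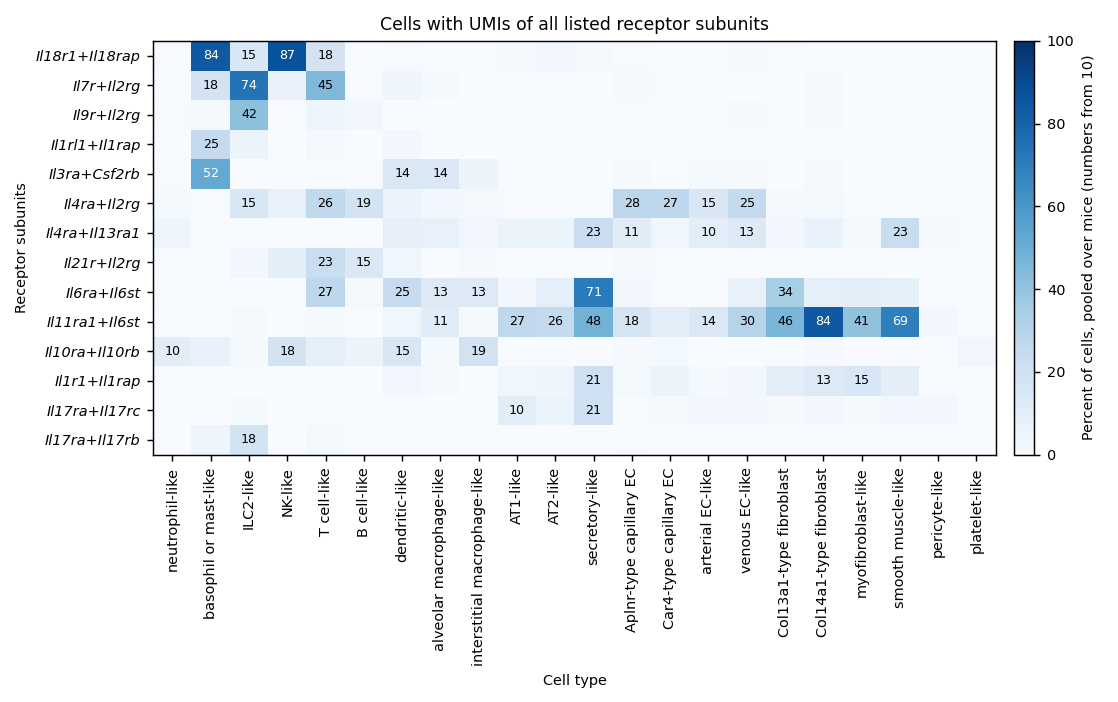
Percent of cells of each type with at least 1 UMI of every listed subunit, for 14 receptor subunit sets (rows) and 22 types (columns), pooled over mice. Deep types detect more subunits per cell, and the highest values, 86.7% in NK and 84.1% in basophil or mast, belong to the IL-18 pair.

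Trios were seen in few cells. The full IL-2 receptor (*Il2ra*, *Il2rb* and *Il2rg*) was seen in 9 of 65 ILC2-like cells, the IL-15 trio with *Il15ra* in 3 of 83 NK-like cells and the IL-12 pair, *Il12rb1* with *Il12rb2*, also in 3 of 83. *Il2* itself had 122 UMIs in 119 cells, and its highest type, the ILC2-like cells, stood at 6.58, 17.9 and 26.8 CPM.

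Genes that the receptors use but that lie outside the family were counted by class in the same fit. Of 8 inflammasome genes, which activate IL-1β and IL-18, 8 were higher in the immune class, 3 in EC and 0 in both other classes, and their median immune log2 fold change was 4.88 against -0.06 over all genes. *Nlrp3*, the sensor that caspase-1 is recruited to, stood at 1258 ± 74.7 CPM (SD, n = 3) in neutrophil-like cells, with interstitial macrophage-like cells next at 46.2 CPM. *Casp4* and *Gsdmd* were also highest in neutrophil-like cells. *Casp1*, *Nlrc4* and *Aim2* were highest in interstitial macrophage-like cells, *Pycard* in NK-like cells and *Nlrp1b* in dendritic-like cells. Of 15 JAK, STAT and SOCS genes 12 were higher and 1 lower in the immune class, 6 and 4 in EC, 2 and 9 in epithelial and 2 and 10 in stromal cells. Of 14 genes of IL-1 receptor signalling 11 were higher and 1 lower in the immune class, and 0 were higher and 8 lower in the stroma. Of 14 receptor partners tested, such as *Csf2rb* and *Csf1r*, 9 were higher and 5 lower in the immune class. All these counts are to be read against the class shares given above for all genes, such as 37% higher and 38.2% lower in the immune class and 36.3% and 31.9% in the stroma.

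Members seen in few cells close the family. Between 1 and 9 UMIs were counted for *Il10*, *Il19*, *Il24*, *Il27*, *Il17f*, *Il1f8*, *Il20ra*, *Il22ra1*, *Il22ra2*, *Il23r*, *Il1rapl1* and *Il1rapl2*. *Il10*, the main anti-inflammatory interleukin, had 5 UMIs in 4 cells, and *Il17f* had 1. *Il13ra2*, the IL-13 decoy, had 12 UMIs in 8 cells, at 2.08, 4.72 and 0 CPM in Col14a1-type fibroblasts. *Il31ra* had 14 UMIs in 11 cells. *Il18bp*, the secreted inhibitor of IL-18, had 194 UMIs and was not tested by type, with venous EC-like cells highest at 11, 12.1 and 12.6 CPM. *Il20rb* had 135 UMIs in 134 cells, with arterial EC highest at 13.6, 8.83 and 11.1 CPM.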

How the data were processed

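Whole lungs of 3 C57BL/6 mice (P14, RA) were profiled by 10x 3' v3 scRNA-Seq. The deposited files are raw UMI counts per gene and barcode, made by the authors with Cell Ranger 3.0.2 on mm10 per the submitters' processing notes. The annotation release and the use of strand are not given in the sources used here. Groups were cell types, and mice were the replicates.

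Cells were normalised with SCTransform (sctransform 0.4.2, Seurat 5.3.0) on 2967 variable genes, 3000 less the 33 that were members, and clustered on 30 principal components at resolution 0.8. Clusters were named from marker lists whose score limits were set after the clusters were seen, and 4 clusters (688 cells) stayed unnamed. Scrublet scores (scanpy) marked 46, 54 and 19 barcodes, which were kept (in mice 2 and 3 the automatic threshold marked under 0.5%, so the highest scores were taken). Sums of UMIs for each class (12 sums) or type (64 sums of at least 10 cells, in at least 2 mice) in each mouse were tested with edgeR 4.0.16 (TMM, filterByExpr, quasi-likelihood F test, Benjamini-Hochberg over all genes) in R 4.3.3, with DESeq2 1.42.0 as alternative. In a type or class contrast the logs of types or classes at 0 UMIs enter the mean. Folds are therefore not bounds, and type calls are given with levels. On simulated counts with 200 genes changed by 2 (log2), edgeR recovered 99% in the immune class over 14257 genes, 95% in neutrophil-like and 88.5% in ILC2-like sums over 12453 genes. Before the change each simulated gene had the same mean level in every type, and all had the same fixed spread. Members at 0 UMIs in many types are unlike that, so recovery was not measured for them.

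Kept cells had medians of 7119, 4853 and 6453 UMIs in mice 2, 3 and 4. Library pairs differed by 9.12 to 38.1 chi-square per degree of freedom, so no library was a copy. Sums of the same mouse deviated together (18 pairs, correlation 0.132 to 0.480 over 3828 genes), so the mice pair the sums, and a fit with mouse as block was an alternative. The other alternatives were library totals without TMM, no filter on low counts, leaving out each mouse, a stricter cell filter, doublets removed, resolutions of 0.4 and 1.2, members among the variable genes, platelet-like sums left out and, chosen after seeing the data, all other sums as 1 group, small sums added and the dividing cluster of the Aplnr-type capillary EC left out. Promoters were RefSeq windows on GRCm38, present for 66 of 83 symbols, and were printed where a neutrophil, ILC2 or basophil or mast-led member stood apart, had 1 distinct start and no annotated exon in the window. Members described were those with at least 100 UMIs, tested members, ligands with at least 10 UMIs and their receptor subunits. Members and lists were chosen with earlier results of these data known.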

Additional observations from a re-analysis of the deposited data

How the results depend on the processing

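Of 145 counts recomputed under the alternatives, 143 stayed within 1.5 times the value reported. The exceptions belong to the alternative that treats all other sums as 1 group, added after the data were seen, in which 31 rather than 47 members were called higher in their leading type and 36 rather than 284 calls were made over all types. Over all genes the share of calls fell from 26.5% to 2.07% there. With mouse as a block, 14 members were higher and 14 lower in EC (30.9% and 27.9% of all genes). Epithelial cells had 9 and 26 (34.3% and 37.1%), immune cells 36 and 10 (37.2% and 38.3%) and stromal cells 10 and 26 (36.6% and 32.3%). In that fit 47 were called in their leading type and 285 calls were made over all types (26.5% over all genes). The pairing thus moved no count by more than 1.5 times. Leaving out each mouse gave 34 to 36 members higher in the immune class (33.9% to 34.3% of all genes) and 46 to 47 called in the leading type. Of 681 values of single members, 653 kept direction and call, 26 lost the call and 2 reversed. *Il21r* in platelet-like cells ran from -3.23 to 7.83 (log2) when a mouse was left out, reversed without mouse 2, and *Il1rl2* in dendritic-like cells was -4.44 under the stricter cell filter of 500 genes and 10% mitochondrial UMIs; the cause was not tested. Of the 26, 16 were lost with the other sums as 1 group, 9 under DESeq2 and 1, *Il4i1* in dendritic-like cells, under the stricter filter (log2 fold change 1.73, edgeR adjusted p = 0.485). With doublets removed the ILC2-like cells merged with T cell-like cells, with members among the variable genes they merged with others, and at resolution 0.4 neither they nor arterial EC, dendritic-like and interstitial macrophage-like cells formed a cluster, so those values exist only where the type was resolved. Members that stood apart numbered 31 to 36 under the other cell filters and clusterings (32.7% to 37.7% of all genes), but of the 31 only 22 (resolution 0.4), 24 (doublets removed, and members among the variable genes), 26 (stricter filter) and 30 (resolution 1.2) did so with the same leading type. Without TMM, 46.3% of all genes were higher and 17.1% lower in EC, against 30.7% and 27.7%, and of the members 15 and 10. Thinning to 1000 UMIs moved 50 shares of cells by more than their SD or interval and left 8 within it.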

Other observations

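The mixed dividing cluster of 111 cells counted with the Aplnr-type capillary EC held 64 of the 66 *Il7r* UMIs and all 19 *Il2rb* UMIs of that type. *Il16* stood at 44 CPM in that cluster and at 2.94 CPM in the other cells of the type, and *Il17rd* at 35.6 against 106 CPM.

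*Il1b* per 1000 UMIs of *S100a8* and *S100a9*, the abundant calprotectin genes of neutrophils, was 167 in neutrophil-like cells, 139 in AT2-like cells, 368 in Col14a1-type fibroblasts, 1167 in alveolar macrophage-like cells and 3462 in interstitial macrophage-like cells. *Il1rn* gave 12.7 in neutrophil-like, 4567 in alveolar macrophage-like and 1538 in interstitial macrophage-like cells. The ratios of alveolar and interstitial macrophage-like cells rest on only 30 and 13 calprotectin UMIs, against 104451 in neutrophil-like cells, so they are imprecise.

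Within the B cell-like cells *Il9r* stood at 22.2 CPM in one cluster and 6.81 CPM in the other, and *Il4i1* at 128 and 56.5 CPM. *Il21r* was seen beside *Il2rg* in 262 of 1784 B cell-like cells and in 51 of 219 T cell-like cells.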
